A study of Mus musculus with 38 samples.

Results

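The 42 genes described here are a list of interferon response genes, followed in mouse lung adenocarcinoma organoids. They were chosen as symbols, with earlier results of these data known, and other interferon-induced genes lie outside the list. Each symbol matched 1 Ensembl gene ID, out of 55406 IDs shared by the 3 deposited count tables, and all 42 were followed in 38 RNA-seq libraries. The organoids were grown in Matrigel from individual tumours of mice of mixed 129/B6 background that carried p53frt and Rosa-FSF-CreERT2, so every group shared loss of p53 and a tamoxifen-inducible Cre, and each line stems from 1 tumour. Lines with floxed Foxa1 and Foxa2 (called double-floxed here) gave 5 libraries after 4-hydroxytamoxifen (4-OHT, 2 µM for 72 h, which activates Cre) and 5 after ethanol vehicle, from lines 1027B, 1027D and 1292B. Foxa1-floxed lines 1552A, 1552B and 1552C gave 6 and 6, and Foxa2-floxed lines 1267B and 1526C gave 4 and 4. Line 1027B was further given a hairpin, shNKX2-1 or the control shScramble, each with 4-OHT and with vehicle in 2 libraries, so that experiment rests on 1 line. The sources used here do not give when the RNA was taken after treatment, and nothing says which libraries of 1 line were separate cultures, so p-values measure the spread between these libraries, which may in part be technical.

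Interferons are secreted proteins that bind receptors on the same or neighbouring cells and, through the kinases Jak1 and Tyk2, activate factors that include Stat2. A complex that holds Stat2 and Irf9 binds the interferon-stimulated response element in target genes, whereas the gamma-activated site is a second element, known from the response to interferon gamma. The induced genes encode sensors of foreign nucleic acid, enzymes that block viral RNA, and the factor Irf7, which drives further interferon production. Epithelial and tumour cells can run this programme without leukocytes.

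Before the members, the libraries were checked. Totals ran from 13.6 M to 33.2 M counts. Foxa2 fell to 2.61 to 6.25 CPM (counts scaled to library size with TMM factors) with 4-OHT in double-floxed lines, against 62.5 to 191 CPM with vehicle, and to 1.97 to 4.12 CPM in Foxa2-floxed lines, against 73.9 to 122 CPM. Foxa1 fell to 14.3 to 17.9 CPM with 4-OHT in Foxa1-floxed lines, against 41.6 to 83.1 CPM with vehicle. In double-floxed lines it fell to 9.18 to 18.8 CPM with 4-OHT, against 17.4 to 90.3 CPM with vehicle, with 1 library of each group overlapping. In the hairpin libraries Foxa2 fell to 1.8 and 0.301 CPM in shNKX2-1 organoids with 4-OHT, against 80.7 and 63 CPM with vehicle, and to 2.11 and 2.42 CPM in shScramble organoids with 4-OHT, against 84.9 and 72.9 CPM with vehicle. Foxa1 was not called lower there: it had 20.8 and 18.1 CPM in shNKX2-1 organoids with 4-OHT, against 32.1 and 25.8 CPM with vehicle (adjusted p = 0.236, edgeR quasi-likelihood test), and 18.7 and 17.4 CPM in shScramble organoids with 4-OHT, against 30.7 and 20.9 CPM with vehicle (adjusted p = 0.469). Nkx2-1 stood at 172 and 190.3 CPM in shNKX2-1 organoids with 4-OHT, against 335 and 382 CPM in shScramble organoids with 4-OHT (log2 difference -0.98, adjusted p = 0.0763). With vehicle it stood at 329 and 264 CPM in shNKX2-1 organoids, against 405 and 406 CPM in shScramble organoids (log2 difference -0.44, adjusted p = 0.755), so its knockdown was called under neither treatment. Epithelial markers summed to between 4786 and 18541 CPM by library, 11 leukocyte markers to between 0.521 and 30.9 CPM and 6 fibroblast markers to between 0.053 and 4.48 CPM. The fibroblast gene Lum and the leukocyte genes Tyrobp and Siglech were at or near 0. Other listed markers were detected, such as Csf1r at 27.3 CPM in double-floxed 4-OHT replicate 3. The mitochondrial share of counts was 11.7% in shNKX2-1 4-OHT replicate 2 and at most 4.3% in the other 37 libraries.

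The promoter windows of 8 members are shown because they carry the sequence through which interferon signalling is known to reach its targets, or because the gene was called below and its window lacks it. Each window holds 250 bases before and 50 bases after the annotated start of the gene on its own strand (RefSeq, GRCm38.p6), and capitals mark the interferon-stimulated response element core, GAAANNGAA on either strand. Ifit1 lies at chr19:34640639-34640938 (+), Isg15 at chr4:156200769-156201068 (-), Oas3 at chr5:120777610-120777909 (-), Stat2 at chr10:128270248-128270547 (+), Gbp2 at chr3:142620413-142620712 (+), Ddx58 at chr4:40239776-40240075 (-), Irf7 at chr7:141266375-141266674 (-) and Sp100 at chr1:85649738-85650037 (+).
Ifit1: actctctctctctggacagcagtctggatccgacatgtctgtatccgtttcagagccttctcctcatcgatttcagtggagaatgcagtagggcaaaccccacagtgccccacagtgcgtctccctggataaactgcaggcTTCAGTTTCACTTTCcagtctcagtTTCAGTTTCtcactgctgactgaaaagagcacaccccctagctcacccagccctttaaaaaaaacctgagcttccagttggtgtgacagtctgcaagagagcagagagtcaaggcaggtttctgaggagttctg
Isg15: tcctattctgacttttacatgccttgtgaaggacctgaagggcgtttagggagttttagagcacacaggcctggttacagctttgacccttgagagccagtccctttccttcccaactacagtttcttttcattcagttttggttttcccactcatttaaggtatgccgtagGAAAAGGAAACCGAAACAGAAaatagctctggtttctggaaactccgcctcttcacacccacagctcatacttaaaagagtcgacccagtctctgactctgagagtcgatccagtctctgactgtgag
Oas3: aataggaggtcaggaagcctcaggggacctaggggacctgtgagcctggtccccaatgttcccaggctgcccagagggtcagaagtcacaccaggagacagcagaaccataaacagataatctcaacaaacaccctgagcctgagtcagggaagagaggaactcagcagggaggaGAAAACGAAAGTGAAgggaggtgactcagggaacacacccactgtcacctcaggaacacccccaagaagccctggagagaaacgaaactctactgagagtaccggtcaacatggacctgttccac
Stat2: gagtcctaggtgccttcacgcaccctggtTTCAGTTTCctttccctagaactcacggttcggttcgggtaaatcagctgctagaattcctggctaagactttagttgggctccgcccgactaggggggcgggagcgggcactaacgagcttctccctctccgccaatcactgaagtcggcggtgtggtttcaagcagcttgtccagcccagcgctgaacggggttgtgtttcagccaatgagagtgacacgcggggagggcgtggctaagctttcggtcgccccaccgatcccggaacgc
Gbp2: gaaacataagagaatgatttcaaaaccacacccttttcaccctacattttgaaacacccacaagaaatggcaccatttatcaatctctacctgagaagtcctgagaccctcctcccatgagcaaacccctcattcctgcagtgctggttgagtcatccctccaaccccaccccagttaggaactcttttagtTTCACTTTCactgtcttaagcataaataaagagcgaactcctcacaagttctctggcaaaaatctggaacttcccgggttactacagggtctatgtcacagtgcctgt
Ddx58: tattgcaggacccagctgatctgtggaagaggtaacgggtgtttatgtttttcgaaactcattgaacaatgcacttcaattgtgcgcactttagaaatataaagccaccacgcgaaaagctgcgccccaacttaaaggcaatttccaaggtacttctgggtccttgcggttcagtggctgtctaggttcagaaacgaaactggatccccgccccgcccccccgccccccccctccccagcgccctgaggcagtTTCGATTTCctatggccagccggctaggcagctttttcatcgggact
Irf7: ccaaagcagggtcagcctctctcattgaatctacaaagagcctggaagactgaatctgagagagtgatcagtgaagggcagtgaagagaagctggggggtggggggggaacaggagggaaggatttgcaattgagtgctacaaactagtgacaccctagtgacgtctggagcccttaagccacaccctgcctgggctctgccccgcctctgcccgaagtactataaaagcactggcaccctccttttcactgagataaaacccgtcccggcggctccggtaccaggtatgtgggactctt
Sp100: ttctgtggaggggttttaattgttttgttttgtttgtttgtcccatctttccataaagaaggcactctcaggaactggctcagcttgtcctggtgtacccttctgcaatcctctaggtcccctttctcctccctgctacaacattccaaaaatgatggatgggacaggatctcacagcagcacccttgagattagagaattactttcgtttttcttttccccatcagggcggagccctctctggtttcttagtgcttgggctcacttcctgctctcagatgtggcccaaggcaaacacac

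Of the 42 members, 32 had a promoter window in the table used, with 40 windows among them. The response element core occurred in the windows of 17 of these 32 genes (53.1%), against 9.76% of all 27025 genes with a window. In the Isg15 window 3 matches overlapped in 1 run, from 78 bases before the start, and in Ifit1 3 matches lay between 109 and 76 bases before it. The second motif, the gamma-activated site TTCNNNGAA, occurred in 9 of the 32 (28.1%), against 9.55% of all genes. The 9 included Irf1, whose match lay 90 to 82 bases before the start, Gbp7 with 2 matches, and Bst2, whose match (136 to 128 bases before the start) overlapped a response element core by 3 bases. No match to either motif was found in the windows of Irf7, Irf9, Oasl2, Xaf1 or Sp100. These are letter matches in 300 bases and no test was made of them.

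The members lie on 15 chromosomes, with several neighbours whose reads can be hard to tell apart. Ifit1, Ifit2, Ifit3 and Ifit3b are together on chromosome 19, the 5 Oas and Oasl genes on chromosome 5, and Gbp2, Gbp3 and Gbp7 on chromosome 3. Genes within a family can be alike in sequence, to differing degrees. Their likeness was not measured here, so how reads were divided among them is uncertain. Parp9 (35938470 to 35972605, forward strand) and Dtx3l (35926511 to 35939151, reverse strand) overlap on chromosome 16, and since the strand setting of the counting is not given, their counts cannot be fully separated. Mx2 is annotated as a polymorphic pseudogene.

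**Figure D1:**
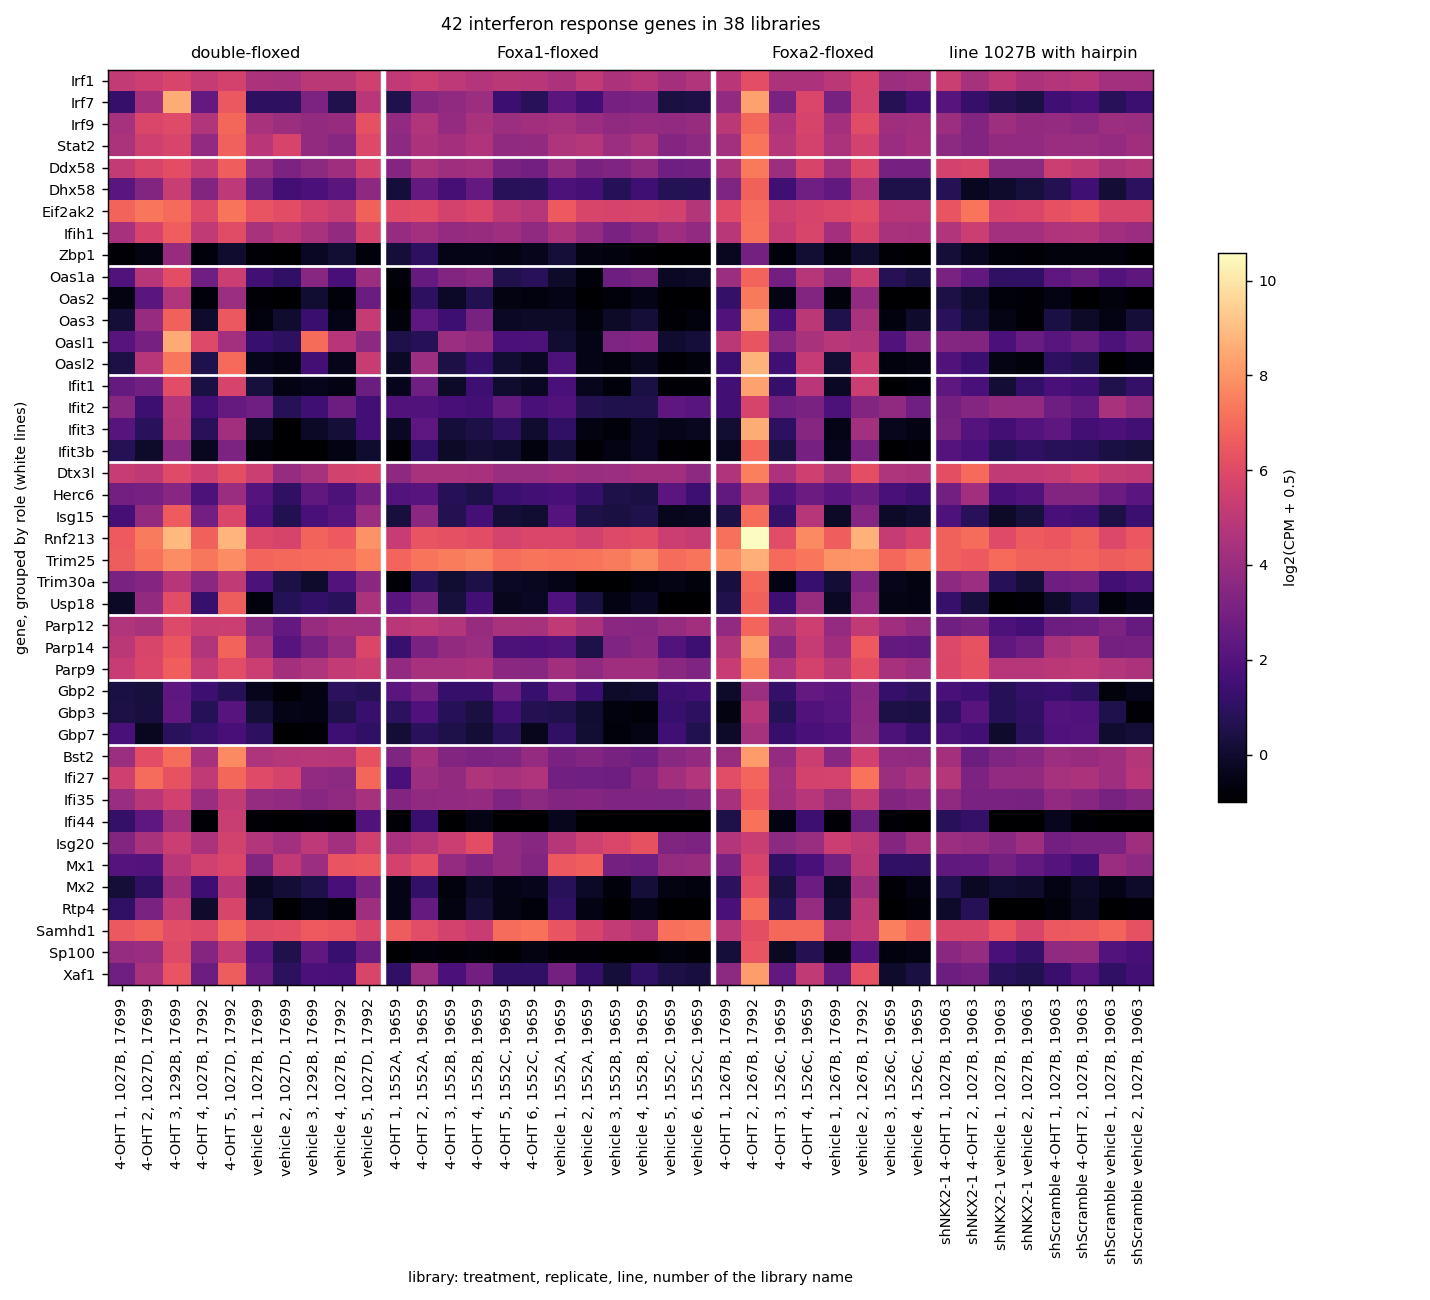
Level of the 42 members (rows, grouped by role between white lines) in each of the 38 libraries (columns, 4-OHT left of vehicle), as log2(CPM + 0.5). The brightest columns are 4-OHT replicate 2 of the Foxa2-floxed lines (line 1267B, 17992) and 4-OHT replicates 3 and 5 of the double-floxed lines.

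Loss of Foxa1 and Foxa2 together was compared first, as 4-OHT over vehicle in the double-floxed lines. Here 1 of the 42 members rose and none fell, while 40 of 42 had a fitted change above 0, where 52.2% of all genes did. The gene that rose was Sp100, which encodes a protein of nuclear bodies that restrict viral genomes, at 27 ± 20.8 CPM with 4-OHT and 3.44 ± 1.98 CPM with vehicle (SD, n = 5 each). Of all 15198 genes tested, 1.99% were called higher and 1.91% lower. The median fitted log2 change of the members was 1.34, beside 0.02 for all genes, and 15 members had an unadjusted p below 0.05, where 20.3% of genes did. In bulk samples such as these, more or fewer cells that express a gene and more or less RNA per cell cannot be told apart. In this and the later comparisons of 4-OHT with vehicle, all treated organoids carried floxed Foxa alleles. What is called loss of Foxa1 or Foxa2 therefore stands for the whole difference between 4-OHT and vehicle. The part of 4-OHT itself, or of active Cre, in that difference was not tested.

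Sp100 had 14.6, 15.8, 60.4, 10 and 34.1 CPM in 4-OHT replicates 1 to 5, against 3.92, 1.01, 4.65, 1.83 and 5.77 CPM in vehicle replicates 1 to 5. Every 4-OHT library was above every vehicle library, and the fitted log2 change was 2.73 ± 0.53 (SE; adjusted p = 0.0286, edgeR quasi-likelihood test with Benjamini-Hochberg adjustment). Parp12, a mono-ADP-ribosyltransferase, was the other member whose groups did not overlap, with 25.4, 21.5, 61.2, 39.6 and 42.5 CPM with 4-OHT, against 11, 4.99, 14.8, 19.6 and 18.6 CPM with vehicle. Its adjusted p was 0.0829. Among all genes tested, 1.55% had every 4-OHT library above every vehicle library.

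The factors of the pathway differed among themselves. Irf7 had 1.8, 19.7, 379.6, 5.08 and 88.6 CPM with 4-OHT, against 1.43, 1.46, 8.48, 1 and 29.2 CPM with vehicle. It was higher with 4-OHT in each line, yet the groups overlapped, because line 1027B stayed low under both treatments and line 1027D was already high with vehicle in 1 of its libraries. Irf9 had 20, 54.9, 63.9, 25.4 and 117 CPM with 4-OHT, against 21.7, 16.3, 13.6, 15.2 and 73.8 CPM with vehicle. Stat2 had 22.3, 44.6, 53.7, 13.3 and 106 CPM with 4-OHT, against 29.2, 52.7, 13.6, 11 and 61.6 CPM with vehicle. The Stat2 groups overlapped throughout, and it was higher with 4-OHT in only 3 of 5 pairs of the same line and number. Irf1, which answers interferon gamma, was higher in 5 of 5 pairs, by 0.15 to 1.01 on the log2 scale.

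Members further down the pathway spread more widely. Isg15, a ubiquitin-like protein that is attached to other proteins, had 2.58, 13.8, 94.1, 7.06 and 55.1 CPM with 4-OHT, against 2.92, 1.07, 2.74, 3.73 and 15.5 CPM with vehicle. Ifit1, which binds viral RNA that lacks the host's cap methylation, had 5.25, 6.76, 67.9, 0.854 and 52.9 CPM with 4-OHT, against 0.742, 0.168, 0.274, 0.179 and 6.14 CPM with vehicle. For Ifit1 the difference held within each line, and only vehicle replicate 5 of line 1027D reached the range of the 4-OHT libraries. Ddx58, the RNA sensor RIG-I, had 35.3, 54.5, 70.3, 36.9 and 102 CPM with 4-OHT, against 16.4, 8.69, 12, 17.9 and 48.5 CPM with vehicle (adjusted p = 0.0976). Ifi44 had 1.75, 4.46, 19.3, 0.0449 and 39.3 CPM with 4-OHT, against 0.053, 0, 0.0547, 0 and 3.46 CPM with vehicle (adjusted p = 0.116).

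By role, the median fitted log2 changes in the double-floxed lines were 3.46 for the 4 IFIT genes, 2.35 for the 5 Oas and Oasl genes and 1.42 for the 3 PARP genes. They were 1.37 for the 5 sensors, 1.30 for the 3 guanylate-binding GTPases and 1.06 for the 7 genes of ISG15 and ubiquitin conjugation. The 4 factors had 0.73 and the 11 other effectors 0.87. The members fitted below 0 were Mx1 and Isg20. Mx1, a gene of the dynamin-like GTPase family, had 3.6, 3.48, 29.9, 45.8 and 55.9 CPM with 4-OHT, against 9.65, 34.3, 16.4, 80.2 and 86.8 CPM with vehicle. It was lower with 4-OHT in 4 of 5 pairs.

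Library names begin with a number, 17699 or 17992 for these lines, and both treatments of a line share it. With line and number together as the replicate block, 13 members were called higher and none lower, where 6.44% of all genes were called higher. They were Sp100, Parp12, Ifi44, Oasl1, Ddx58, Ifit1, Eif2ak2 (the kinase PKR), Ifit3, Ifit3b, Rnf213, Trim30a, Oasl2 and Oas3. Across the 5 pairs of line and number, 25 of 42 members were higher with 4-OHT in each, against 14.1% of all genes tested. The pairs were unequal: the median log2 difference over the members was 2.76 in line 1292B, 1.7 and 1.02 in line 1027D (17699 and 17992), and 0.46 and 0.41 in line 1027B. The call of Sp100 was lost without line 1027B, 1027D or 1292B (adjusted p of 0.121, 0.205 and 0.0894) and without 6 single libraries, 4-OHT replicates 1, 2, 3 and 5 and vehicle replicates 3 and 4 (0.0506 to 0.0913), while its log2 change stayed between 2.45 and 3.17 whichever line or library was left out.

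**Figure D2:**
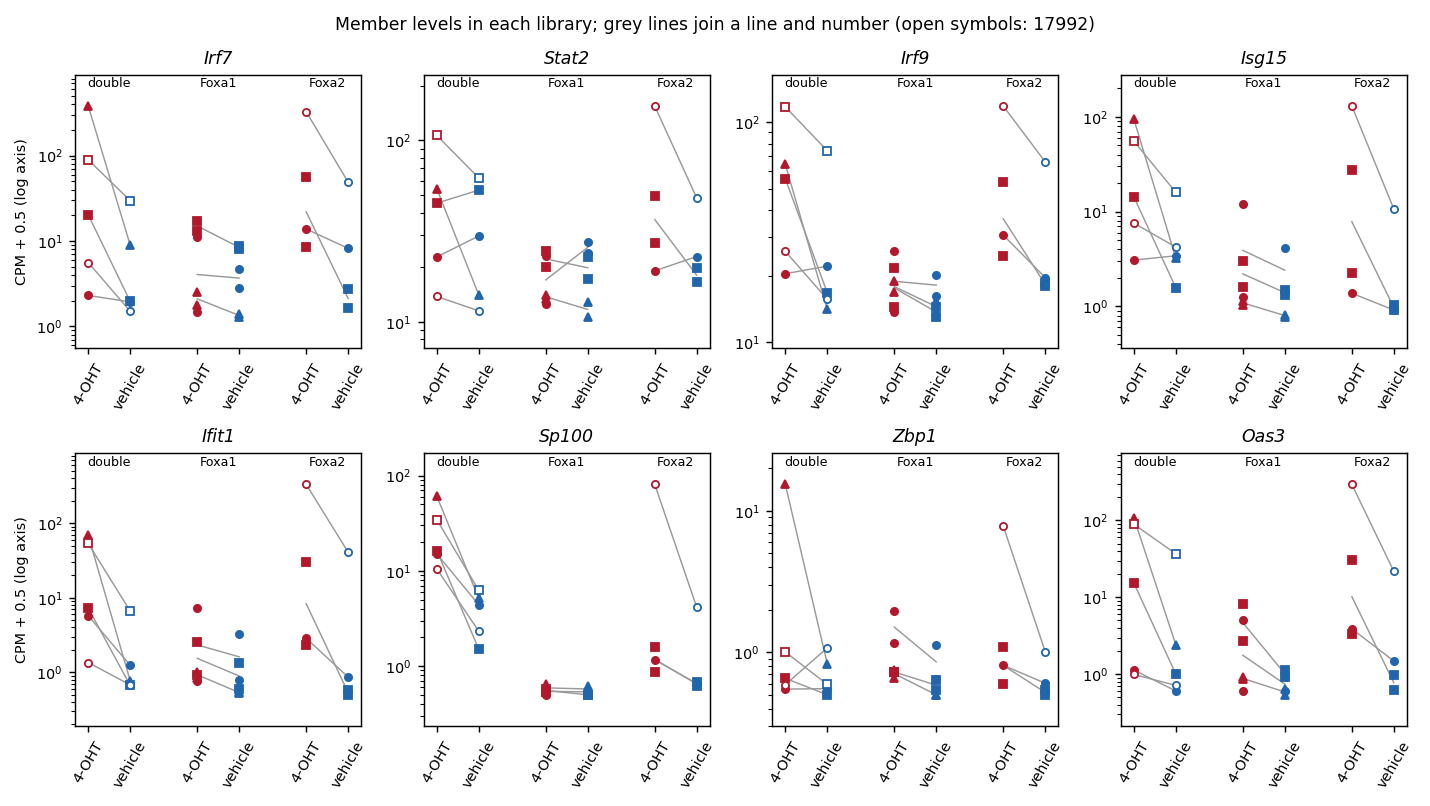
Level of 8 members in each library of the 3 genotypes, as CPM + 0.5 on a log axis, with 4-OHT in red on the left and vehicle in blue on the right. Circles are lines 1027B, 1552A and 1267B, squares 1027D, 1552B and 1526C, triangles 1292B and 1552C; open symbols are libraries numbered 17992, and grey lines join the mean log2 levels of 1 line and number. Sp100 separates the treatments in the double-floxed lines and is near 0 in the Foxa1-floxed lines.

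Loss of Foxa1 alone was compared in lines 1552A, 1552B and 1552C. None of the 42 members was called in either direction (edgeR quasi-likelihood test), with 3 of 42 at an unadjusted p below 0.05, where 11.4% of genes were. DESeq2 called 1 member and 1.45% of genes. Of 16887 genes, 0.00592% (1 gene) were called higher and 0.00592% lower. The fitted changes were above 0 for 37 of 42 members and for 51.9% of all genes. The median log2 change of the members was 0.58, beside a median close to 0 for all genes. The median over the members was 0.44, 0.57 and 0.27 within the 3 lines, and 33, 38 and 32 of 42 were higher with 4-OHT. In each of the 3 lines 27 of 42 were higher, where 3032 of 16885 genes were. The libraries of line 1552A differed within a treatment: the summed level of the members was 569.6 and 856 CPM with 4-OHT, against 736 and 648 CPM with vehicle, and Ifit1 had 0.256 and 6.69 CPM, against 2.79 and 0.293 CPM.

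The 4 members with the smallest adjusted p were Oasl1, Oas3, Zbp1 and Usp18. Oasl1 ranged from 0.913 to 16.7 CPM with 4-OHT (median 2.99), against 0.219 to 10.3 CPM with vehicle (median 0.613), and differed more between lines than between treatments. Lines 1552B, 1552C and 1552A gave 16.7 and 13.8, 2.97 and 3.02, and 0.913 and 1.25 CPM with 4-OHT, against 8.88 and 10.3, 0.521 and 0.669, and 0.558 and 0.219 CPM with vehicle. Within each line both 4-OHT libraries were above both vehicle libraries (log2 change 1.38 ± 0.34, SE; adjusted p = 0.146). Oas3 ranged from 0.11 to 7.67 CPM with 4-OHT, against 0.0401 to 0.639 CPM with vehicle, with medians of 1.29 and 0.275 CPM (adjusted p = 0.357). Zbp1, a sensor of left-handed nucleic acid, ranged from 0.161 to 1.46 CPM with 4-OHT, against 0 to 0.632 CPM with vehicle, with medians of 0.24 and 0.0869 CPM (adjusted p = 0.403). Usp18, the protease that removes Isg15, ranged from 0.29 to 8.18 CPM with 4-OHT, against 0 to 3.16 CPM with vehicle, with medians of 1.55 and 0.254 CPM (adjusted p = 0.438).

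The core genes were low in these lines under both treatments. Irf7 ranged from 0.986 to 16.5 CPM with 4-OHT, against 0.802 to 8.34 CPM with vehicle, with medians of 6.24 and 3.29 CPM. Isg15 ranged from 0.535 to 11.5 CPM, against 0.281 to 3.61 CPM, with medians of 0.934 and 0.866 CPM, and Ifit1 from 0.256 to 6.69 CPM, against 0.0352 to 2.79 CPM, with medians of 0.467 and 0.197 CPM. In all 3 genes the groups overlapped. Irf9 ranged from 13.3 to 25.5 CPM with 4-OHT, against 12.6 to 19.8 CPM with vehicle, with medians of 17.5 and 14.4 CPM, and Stat2 from 12 to 24.2 CPM, against 10.2 to 27.2 CPM, with medians of 16.5 and 19.6 CPM. Sp100, the gene that rose in double-floxed lines, had at most 0.157 CPM with 4-OHT and at most 0.12 CPM with vehicle in the Foxa1-floxed lines.

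Loss of Foxa2 alone was compared in lines 1267B and 1526C. The members called were 2, both higher: Zbp1 and the factor Irf7. Of 16887 genes, 1.89% were called higher and 1.55% lower. The fitted change was above 0 for 41 of 42 members, the exception being Isg20, and for 48.9% of all genes. The median log2 change of the members was 1.71, and 31 members had an unadjusted p below 0.05, where 14.2% of genes did. By role, the 5 OAS genes had a median log2 change of 4.39, the 4 IFIT genes 4.38, the 11 other effectors 1.77, the 5 sensors 1.75, the 7 genes of ISG15 and ubiquitin conjugation 1.68, the 3 PARP genes 1.26, the 4 factors 1.08 and the 3 guanylate-binding GTPases 0.62.

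Zbp1 had 0.308, 7.29, 0.0983 and 0.589 CPM in 4-OHT replicates 1 to 4, against 0.104, 0.51, 0.0412 and 0 CPM in vehicle replicates 1 to 4. Each 4-OHT library was above the vehicle library or libraries of its own line and number, but the groups overlapped, and all but 1 library were below 1 CPM (log2 change 3.64 ± 0.96, SE; adjusted p = 0.0451, edgeR). Irf7 had 13.3, 326, 7.99 and 56 CPM with 4-OHT, against 7.69, 48.3, 1.15 and 2.23 CPM with vehicle (log2 change 3.35 ± 0.88, SE; adjusted p = 0.0453). Line 1267B in library 17992 was the highest under both treatments for Irf7, and line 1526C showed the difference from a low vehicle level. Both calls were lost without any 1 of 4-OHT replicates 2, 3 and 4 or vehicle replicates 1, 3 and 4, Zbp1 also without vehicle replicate 2, and neither passed when the genotype was fitted alone (adjusted p of 0.233 and 0.262).

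In other members too the 4-OHT library of line 1267B numbered 17992 was the highest. Oas3 had 3.39, 293, 2.88 and 30.2 CPM with 4-OHT, against 0.987, 21.3, 0.124 and 0.468 CPM with vehicle (adjusted p = 0.0523). Isg15 had 0.873, 129.8, 1.74 and 26.9 CPM with 4-OHT, against 0.416, 10.2, 0.412 and 0.54 CPM with vehicle (adjusted p = 0.0705). Ifit1 had 2.36, 330.3, 1.8 and 29.5 CPM with 4-OHT, against 0.364, 40.3, 0 and 0.0719 CPM with vehicle. In each of these genes 4-OHT replicate 2 stood highest and 4-OHT replicate 4 next among treated libraries. Vehicle replicate 2 lay above 2 of the 4 treated libraries for Oas3 and Isg15 and above 3 of the 4 for Ifit1. Irf9 had 30.2, 118, 24.2 and 53.1 CPM with 4-OHT, against 19.2, 65.6, 17.5 and 18.2 CPM with vehicle. Stat2 had 18.6, 154, 26.7 and 48.8 CPM with 4-OHT, against 22.4, 47.7, 16 and 19.3 CPM with vehicle. For no member was every 4-OHT library above every vehicle library, where this held for 1.48% of all genes tested.

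With line and number as the block, 22 members were called higher and none lower, where 3.15% of all genes were called higher. Beside Zbp1 and Irf7 they included Sp100, Ifi35, Ifit3, Ifih1 (the sensor MDA5), Usp18, Oas3, Rnf213, Oas2 and Isg15. Across the 3 pairs of line and number 31 of 42 members were higher with 4-OHT in each, against 17.1% of all genes. The median log2 difference over the members was 1.79 in line 1267B in 17992, 0.41 in the same line in 17699, and 1.04 in line 1526C. Without the 2 libraries of line 1267B numbered 17992, the median was 1.10 and 4 members were called, and without 4-OHT replicate 2 alone the median was 0.59 and none was called. Leaving out line 1267B as a whole gave 16 calls and leaving out line 1526C none. Shares of all genes called are not given for these left-out fits, so their counts cannot be set against all genes.

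**Figure D3:**
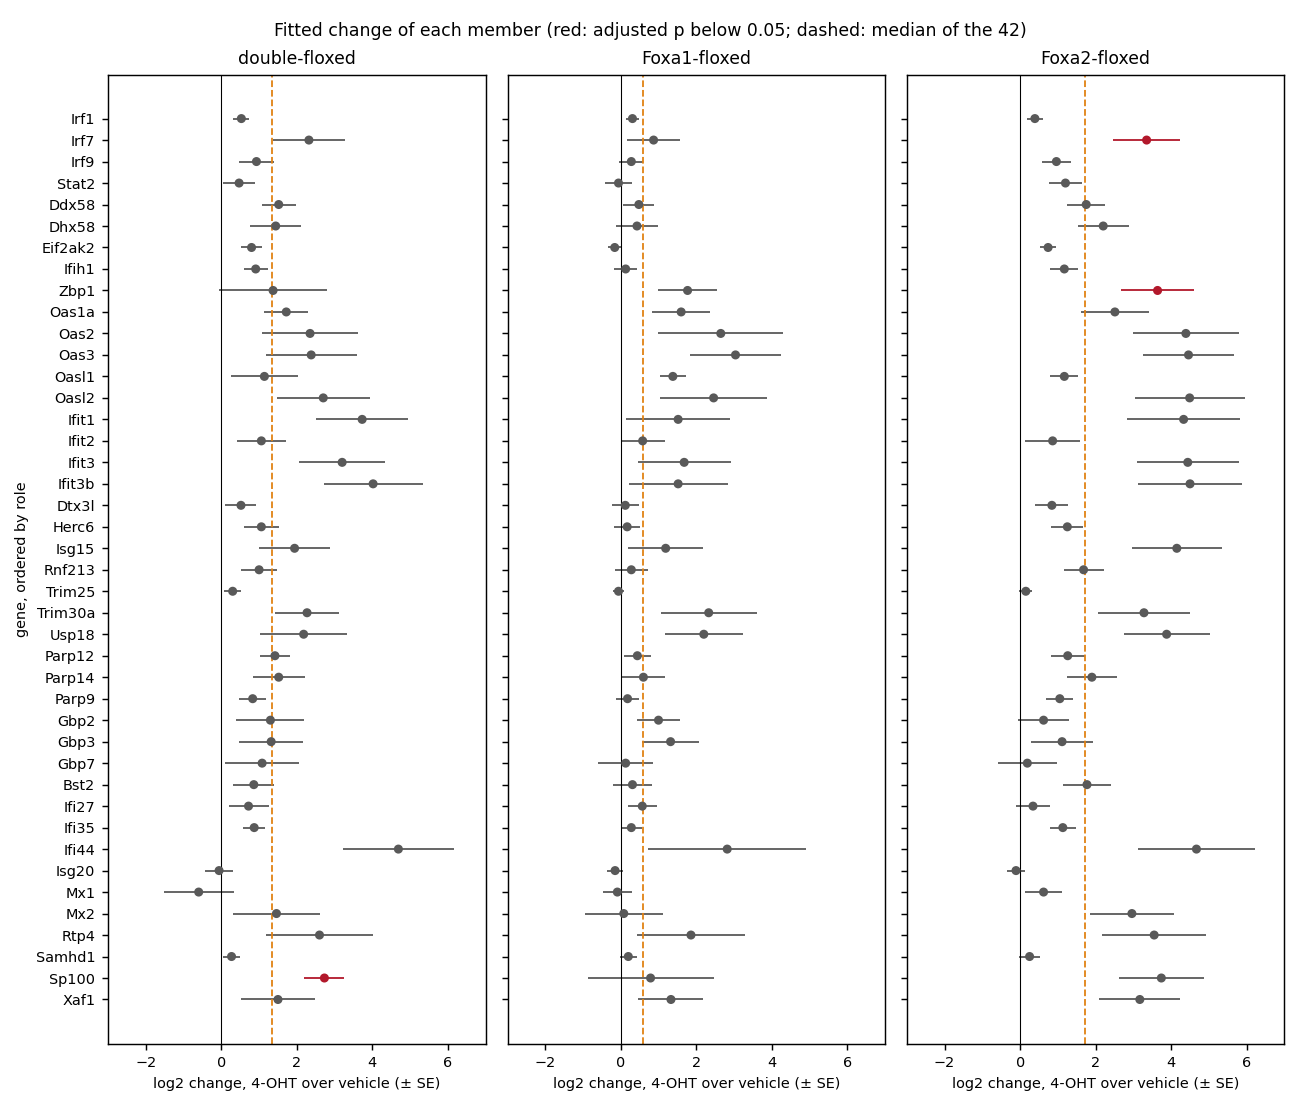
Fitted log2 change, 4-OHT over vehicle, with its SE for each member (rows, ordered by role) in the double-floxed, Foxa1-floxed and Foxa2-floxed lines. Red marks an adjusted p below 0.05 (Sp100 in double-floxed, Irf7 and Zbp1 in Foxa2-floxed lines), and the dashed lines mark the medians of 1.34, 0.58 and 1.71.

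The effects were then set against each other with counts summed per line, so that the 8 lines were the units. No member differed between the Foxa2-floxed and Foxa1-floxed effects, between the double-floxed and Foxa1-floxed effects, or between the double-floxed and Foxa2-floxed effects (edgeR quasi-likelihood test), where 0%, 1.54% and 0.194% of 19085 genes did. At an unadjusted p below 0.05 the counts of the 42 members were 12, 5 and 0, where 3.84%, 17.8% and 8.91% of genes had one. In the second of these comparisons DESeq2 called 3 of the 42 members and 7.48% of all genes. The median difference over the members was 1.23, 0.83 and -0.29 on the log2 scale, and the smallest adjusted p was 0.956, 0.0526 and 0.681. Genotype and library number overlap in these comparisons, because the Foxa1-floxed libraries were all numbered 19659 and the double-floxed ones 17699 or 17992, so the 2 cannot be told apart for that pair. Within 19659 the Foxa2-floxed line 1526C had a median log2 difference of 1.04 with 38 of 42 members higher, against 0.27 to 0.57 in the 3 Foxa1-floxed lines with 32 to 38 higher.

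In lines 1267B and 1027D the members also differed widely between libraries of 1 treatment. In line 1267B the members stood higher in 17992 than in 17699 by a median of 3.53 on the log2 scale with 4-OHT (11.6-fold, 42 of 42 members) and 1.76 with vehicle (3.39-fold, 40 of 42), while the median of all genes moved by 0.01 and 0.02. In line 1027D the shift was 1.25 with 4-OHT and 2.05 with vehicle, with 40 and 41 of 42 members higher. In line 1027B it was 0.09 and 0.12, with 24 and 23 of 42 higher. Among the 15 vehicle libraries without a hairpin, that of line 1267B in 17992 held the highest level of 26 members and that of line 1027D in 17992 that of 10. Oas3 ranged over these vehicle libraries from 0.0401 to 36.3 CPM with a median of 0.409, and Parp14 from 0.951 to 92.4 CPM with a median of 7.5. The spread was narrow for Trim25, at 114 to 259 CPM, and Irf1, at 16.4 to 47.1 CPM. The labels do not say what the numbers mark. Libraries of 1 line, treatment and number differed as well: in line 1526C with 4-OHT Ifit1 had 1.8 and 29.5 CPM and the summed level of the members was 699 and 1450 CPM, and line 1552A is described above.

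Summed over the 42 members, the level ran from 833 to 3591 CPM in double-floxed libraries with 4-OHT, against 645 to 1704 CPM with vehicle. It ran from 570 to 856 CPM in Foxa1-floxed libraries with 4-OHT, against 554 to 736 CPM with vehicle, and from 699 to 7733 CPM in Foxa2-floxed libraries with 4-OHT, against 590 to 2104 CPM with vehicle. The groups overlapped in all 3 genotypes.

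**Figure D4:**
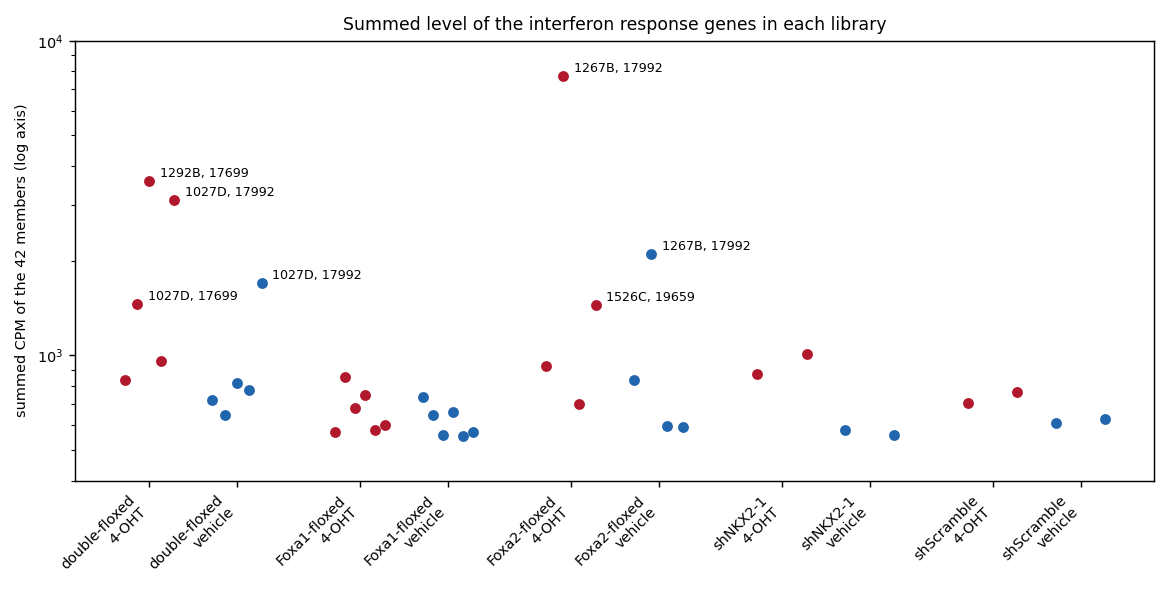
Summed CPM of the 42 members in each library on a log axis, by group, with 4-OHT in red left of vehicle in blue; libraries above 1300 CPM carry their line and number. The 6 labelled libraries other than 1526C come from lines 1027D, 1292B and 1267B, and the 8 hairpin libraries lie between 559.8 and 1007 CPM.

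The hairpin experiment compared 4-OHT with vehicle in line 1027B carrying shNKX2-1 or shScramble. Foxa2 fell with 4-OHT under both hairpins and Foxa1 was called lower under neither, as given above. Line 1027B had the lowest medians of the double-floxed lines above. Mx2, Oas2, Rtp4 and Zbp1 were too low to be tested, leaving 38 members. In shNKX2-1 organoids 12 of 38 members rose with 4-OHT and none fell, where 2.72% of all 14465 genes were called higher and 3.63% lower. In shScramble organoids 5 rose and 2 fell, where 1.67% of genes were called higher and 2.67% lower. The median fitted log2 change of the members was 1.27 in shNKX2-1 and 0.57 in shScramble organoids.

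The 12 members that rose in shNKX2-1 organoids were Parp14, Trim30a, Ddx58, Sp100, Parp9, Xaf1, Dtx3l, Oas1a, Oasl2, Ifi44, Usp18 and Herc6. Parp14, a mono-ADP-ribosyltransferase that promotes interferon signalling, had 58.9 and 79.6 CPM in shNKX2-1 4-OHT libraries, against 4.61 and 6.44 CPM in shNKX2-1 vehicle libraries (log2 change 3.66 ± 0.31, SE; adjusted p = 0.00109, edgeR quasi-likelihood test). In shScramble organoids it had 21.1 and 26.6 CPM with 4-OHT, against 7.32 and 7.49 CPM with vehicle (1.71 ± 0.29; adjusted p = 0.0152). Parp9 had 57.5 and 74.8 CPM in shNKX2-1 4-OHT libraries, against 28.1 and 27.1 CPM in shNKX2-1 vehicle libraries, and its partner Dtx3l, a ubiquitin ligase, had 72.8 and 126 CPM, against 33.4 and 34.5 CPM. Both stood apart without overlap, with adjusted p of 0.018 and 0.021.

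Trim30a had 12.2 and 16.4 CPM in shNKX2-1 4-OHT libraries, against 1.24 and 0.65 CPM with vehicle (adjusted p = 0.00263). Ddx58 had 47.6 and 54.4 CPM, against 11.8 and 11.9 CPM (adjusted p = 0.00297). Sp100 had 11.4 and 14.6 CPM, against 2.75 and 1.71 CPM (adjusted p = 0.00702), and in shScramble organoids 12.6 and 13.6 CPM with 4-OHT, against 3.49 and 2.63 CPM with vehicle (adjusted p = 0.0147), so it rose with either hairpin. Xaf1 had 6.09 and 7.23 CPM in shNKX2-1 4-OHT libraries, against 1.31 and 1.06 CPM with vehicle, Oas1a 8.27 and 4.89 CPM, against 1.51 and 1.59 CPM, and Oasl2 3.33 and 2.03 CPM, against 0.206 and 0.118 CPM (adjusted p of 0.0209, 0.0223 and 0.0223). Ifi44 had no count in any vehicle library of either hairpin and 43 counts over the 2 shNKX2-1 4-OHT libraries, which makes it at least 14.7-fold higher against a floor of 3 counts over the vehicle group. Usp18 and Herc6, the ligase that attaches Isg15 in mice, had adjusted p of 0.0311 and 0.0397.

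In shScramble organoids Gbp2, Oasl2 and Gbp7 also rose with 4-OHT. Gbp2 had 1.94 and 1.45 CPM with 4-OHT, against 0.113 and 0.256 CPM with vehicle (adjusted p = 0.0218), Gbp7 3.14 and 3.51 CPM, against 0.507 and 0.64 CPM (adjusted p = 0.0455), and Oasl2 1.43 and 1.09 CPM, against 0 and 0.128 CPM (adjusted p = 0.038). The 2 members that fell were Mx1, at 3.6 and 2.36 CPM with 4-OHT against 16 and 12.2 CPM with vehicle (-2.21 ± 0.37, SE; adjusted p = 0.0147), and Ifit2, at 6.46 and 4.91 CPM against 21.6 and 14.1 CPM (-1.62 ± 0.34; adjusted p = 0.0357). In shNKX2-1 organoids Mx1 had 4.62 and 4.89 CPM with 4-OHT, against 7.36 and 5.02 CPM with vehicle, and Ifit2 7.25 and 10.2 CPM, against 13.5 and 13.2 CPM; neither was called.

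None of Stat2, Irf9, Irf7, Isg15 and Ifit1 was called in this line. Stat2 had 11.9 and 9.71 CPM in shNKX2-1 4-OHT libraries, against 13.6 and 13.1 CPM with vehicle, and 16.2 and 15.6 CPM in shScramble 4-OHT libraries, against 14 and 17.4 CPM with vehicle. Irf9 had 16.5 and 9.64 CPM, against 17.2 and 13.5 CPM, and in shScramble organoids 14.1 and 12.4 CPM, against 16.4 and 15.3 CPM. Irf7 had 3.78 and 1.81 CPM, against 1.1 and 0.827 CPM, and in shScramble organoids 2.29 and 2.73 CPM, against 1.29 and 2.05 CPM. Isg15 had 3.21 and 1.28 CPM, against 0.413 and 0.709 CPM, and in shScramble organoids 2.63 and 2.36 CPM, against 0.901 and 1.99 CPM. Ifit1 had 4.55 and 2.79 CPM, against 0.619 and 1.65 CPM, and in shScramble organoids 2.74 and 2.24 CPM, against 1.01 and 1.73 CPM. Both 4-OHT libraries were above both vehicle libraries for Irf7, Isg15 and Ifit1 with each hairpin, at levels of a few CPM. Their fitted log2 changes were 1.55, 1.99 and 1.68 in shNKX2-1 organoids (adjusted p of 0.127, 0.116 and 0.127, edgeR) and 0.61, 0.82 and 0.89 in shScramble organoids (0.67, 0.616 and 0.543).

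Of the 38 tested members, both shNKX2-1 4-OHT libraries were above both vehicle libraries for 26 and below both for 4, where 24.8% and 26.3% of all genes tested were. For shScramble the counts were 22 above and 5 below, where 30.6% and 30.1% of genes were. Comparing hairpins directly with 4-OHT, 1 member was higher in shNKX2-1 than in shScramble organoids and none lower, where 0.968% of genes were called higher and 0.608% lower. It was Parp14 (log2 difference 1.54 ± 0.28, SE; adjusted p = 0.0377), and its call was lost without any 1 of the shScramble libraries or the shNKX2-1 vehicle libraries (adjusted p of 0.0703 to 0.383). Both shNKX2-1 libraries stood above both shScramble libraries with 4-OHT for 17 of 38 members, where 22.4% of genes did. With vehicle no member was called between the hairpins, where 0.235% of genes were, and DESeq2 called 2 members and 1.96% of genes. The median log2 difference was -0.23, and 7 members had an unadjusted p below 0.05, 6 of them lower in shNKX2-1, where 7.76% of genes had one in either direction. Both shNKX2-1 vehicle libraries lay below both shScramble vehicle libraries for 15 of 38 members and above both for 7, where 21.2% and 22.7% of genes did. The difference between the 4-OHT effects of the 2 hairpins was called for no member and for 0% of genes, with 10 members at an unadjusted p below 0.05, where 5.41% of genes were. For this difference DESeq2 called 3 members and 0.581% of genes. These comparisons share libraries, so their counts are not independent of each other. Shares of all genes called are not given for the fits below that leave out a library.

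Leaving out any 1 hairpin library left 1 library in its group, so whether the calls hold without it cannot be judged. Over these fits the median log2 change of the members was 1.08 to 1.32 in shNKX2-1 and 0.43 to 0.6 in shScramble organoids. Without shNKX2-1 4-OHT replicate 2, the library with the high mitochondrial share, Parp14 had a log2 difference of 1.29 between the hairpins with 4-OHT. Without shNKX2-1 4-OHT replicate 1, that library was the only 1 of its group.

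**Figure D5:**
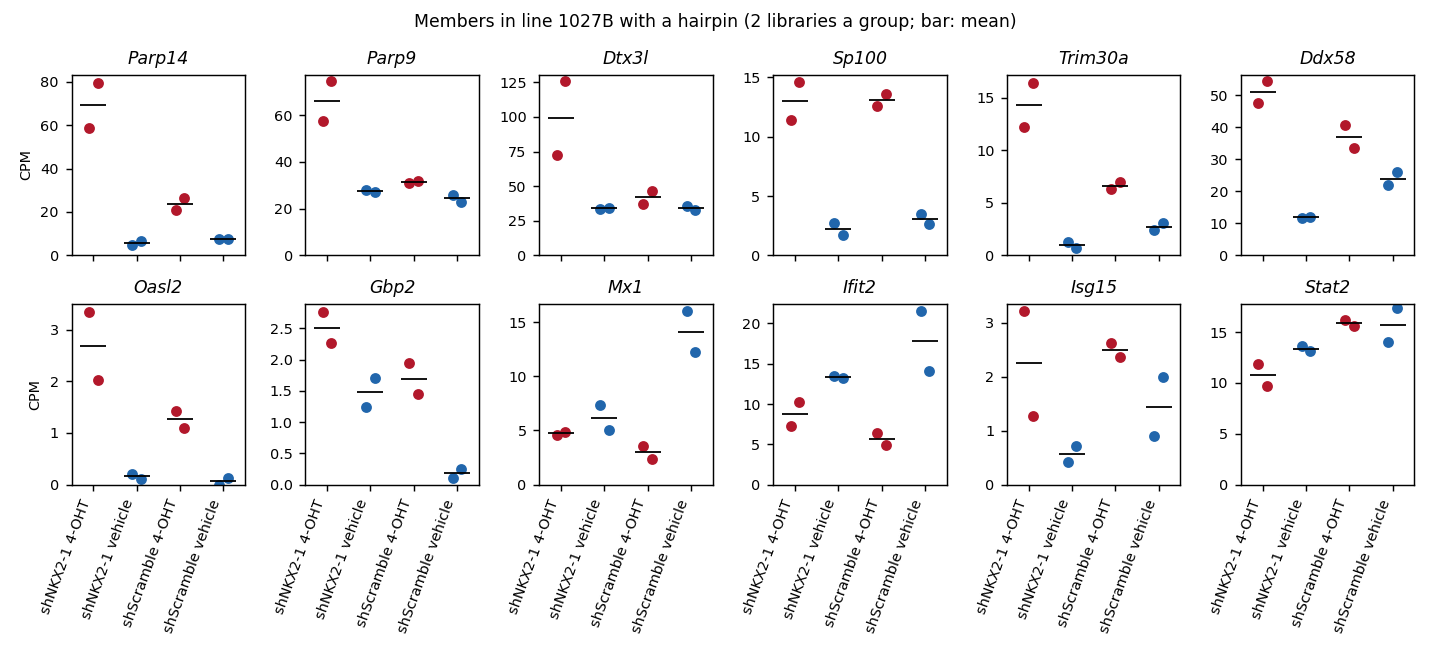
CPM of 12 members in the 8 hairpin libraries of line 1027B, from left to right shNKX2-1 with 4-OHT, shNKX2-1 with vehicle, shScramble with 4-OHT and shScramble with vehicle; points are libraries (red 4-OHT, blue vehicle) and bars are means. Parp14, Parp9 and Dtx3l are highest in the shNKX2-1 4-OHT libraries, Sp100 is high with 4-OHT under both hairpins, and Mx1 and Ifit2 are highest in shScramble vehicle libraries.

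The rest of the pathway was read from lists of genes outside the 42. None of the 21 interferon ligand genes had enough counts to be tested: 10 had no count in any of the 38 libraries, and the highest value of any ligand was 0.341 CPM, for Ifnl3 in Foxa2-floxed 4-OHT replicate 2 (line 1267B, 17992). None of 6 receptor genes and none of 5 kinase and STAT genes was called in any of the comparisons of 4-OHT with vehicle (edgeR). Of all genes, 0.0118% to 6.35% were called in these comparisons, in either direction. None of 10 tested genes that restrain the pathway was called either, the smallest adjusted p being that of Ptpn2, a phosphatase that acts on Jak and Stat proteins, with a log2 change of -0.72 ± 0.18 (SE; adjusted p = 0.0616) in double-floxed lines. Lists this short hold too few genes for a count of none to set them apart from all genes.

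Among 70 further interferon-induced genes, 3 of 61 tested rose with 4-OHT in double-floxed lines, where 1.99% of all genes did. Of the 61, 58 were fitted above 0, with a median log2 change of 1.03, where 52.2% of all genes were above 0. The 3 were Gbp9, Rsad2 (viperin) and Apol9a. Rsad2 had 3.94, 7.07, 28.4, 0.18 and 29.9 CPM with 4-OHT, against 0, 0.0561, 0.219, 0 and 1.48 CPM with vehicle (adjusted p = 0.0402). In Foxa1-floxed lines none of 62 was called, 50 were above 0 and the median was 0.26, where 0.0118% of all genes were called and 51.9% were above 0. In Foxa2-floxed lines 7 of 62 rose, 59 were above 0 and the median was 1.37, where 1.89% of all genes rose and 48.9% were above 0. The 6 with the smallest adjusted p were Ifi204, Nlrc5 (an activator of MHC class I genes), Ifitm3, Ifi203, Phf11b and Uba7, the enzyme that activates Isg15. In the induction pathway Irf5 rose in Foxa2-floxed lines, to 0.668, 1.83, 1.02 and 1.25 CPM with 4-OHT, against 0.312, 0.128, 0.0824 and 0.252 CPM with vehicle (adjusted p = 0.00488), and its groups did not overlap. In shNKX2-1 organoids 12 of 55 further induced genes rose, led by Gbp9, Ifi204, Ifi207, Ube2l6, Sp110 and Nmi, where 2.72% of all genes rose. In shScramble organoids 6 of 55 rose, which were Cmpk2, Gbp9, Gbp8, Rsad2, Ifi204 and Lgals9, where 1.67% of all genes rose. The DNA-sensing genes Aim2, Cgas and Tmem173 (STING) also rose in shScramble organoids (adjusted p of 0.00942, 0.0174 and 0.0434). None of 11 tested genes of that list was called in shNKX2-1 organoids, where Aim2, Cgas and Tmem173 had log2 changes of 1.25, 1.53 and 0.04 (adjusted p of 0.112, 0.0639 and 0.93). In double-floxed lines without a hairpin they had -0.23, 1.00 and -0.90 (adjusted p of 0.937, 0.581 and 0.631, edgeR). There line 1027B had 10.4 and 0.989 CPM of Tmem173 with 4-OHT, against 15.4 and 1.54 CPM with vehicle. Its Aim2 levels were 1.41 and 14.4 CPM, against 1.7 and 12.2 CPM, and its Cgas levels 7.15 and 0.629 CPM, against 4.19 and 0.323 CPM. With vehicle, Aim2 had 34.4 and 37.7 CPM in shNKX2-1 organoids, against 4.95 and 6.21 CPM in shScramble organoids (a fitted 6.52-fold difference, adjusted p = 0.0661), and Tmem173 24.9 and 37 CPM, against 12.9 and 9.73 CPM (2.75-fold, adjusted p = 0.103).

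Leukocyte markers were counted because leukocytes express these genes. The 11 markers summed to 2.43 to 30.9 CPM with 4-OHT in double-floxed lines, against 0.717 to 2.86 CPM with vehicle, with 4 and 3 of 11 at 0 in all libraries of the group. Adgre1, Tyrobp and Siglech were among those at 0 in both groups. Csf1r, a growth factor receptor of macrophages, had 3.45, 10.5, 27.3, 0.494 and 2.91 CPM with 4-OHT, against 0.106, 0.336, 1.59, 0.0359 and 0.231 CPM with vehicle (adjusted p = 0.0114). In Foxa1-floxed lines the sums were 1.49 to 5.1 CPM with 4-OHT, against 0.521 to 2.89 CPM with vehicle, and Csf1r had a log2 change of 2.31 (adjusted p = 0.106). In Foxa2-floxed lines the sums were 2.98 to 8.46 CPM with 4-OHT, against 1.02 to 2.45 CPM with vehicle, with 3 and 5 of 11 at 0, and Csf1r and Itgam rose. Ptprc, which marks all leukocytes, had 0.637 to 1.66 CPM with 4-OHT in double-floxed lines, against 0.0547 to 2.7 CPM with vehicle. In Foxa2-floxed lines it had 0.771, 0.527, 1.15 and 1.18 CPM with 4-OHT, against 0.675, 0.085, 0.659 and 0.432 CPM with vehicle (log2 change 0.95, adjusted p = 0.274). In the hairpin experiment the marker sums were 2.86 to 6.22 CPM in shNKX2-1 organoids with 4-OHT, against 2.95 to 3.72 CPM with vehicle, and 7.57 to 8.29 CPM in shScramble organoids with 4-OHT, against 2.69 to 3.94 CPM with vehicle, without overlap. Ptprc had 2.97 and 2.6 CPM in shScramble organoids with 4-OHT, against 0.563 and 0.704 CPM with vehicle (log2 change 2.15, adjusted p = 0.115). The part of these genes in the result was not tested.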

How the data were processed

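The data are 3 tables of raw gene counts that the authors deposited for 38 libraries. Per the submitters' processing notes, STAR 2.7.6a, featureCounts 1.5.1, DESeq2 and the build GRCm38 were used; for the annotation release and strand setting: not given in the sources used here. Per the labels' protocols, RNA was purified with PureLink columns and libraries were made with a directional NEBNext kit. From the counts, edgeR 4.0.16 (R 4.3.3) was run with filterByExpr, TMM normalization, the quasi-likelihood F test and Benjamini-Hochberg adjustment over all genes, with a threshold of 0.05. The organoid line was the replicate block. Foxa1-floxed and Foxa2-floxed libraries were fitted together, and the hairpin libraries as 4 group means. To compare genotypes, the counts of a line were summed by treatment before the fit. SE is the absolute log2 change divided by the root of F. Levels are CPM with TMM factors over all libraries, and pair differences use log2(CPM + 0.5). The fits were tested on simulated data. DESeq2 1.42.0, other normalization and filters, other blocks and left-out lines or libraries were alternatives.

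Samples of 1 line and library-name number deviated together, with correlations of 0.84 to 0.91 (Foxa1-floxed), 0.8 to 0.89 (Foxa2-floxed) and 0.56 to 0.75 (double-floxed). Line and number were therefore used to pair the samples. Samples of a pair also share their line, so these correlations cannot show what the number adds to the line. Values by library are given for members called with 4-OHT (up to 10 by adjusted p, or the 4 with the smallest adjusted p where fewer than 4 were called) and for Irf7, Stat2, Irf9, Isg15 and Ifit1; Irf1 and Mx1 in double-floxed lines, and values set beside these across comparisons, were chosen after their values were seen. The members, gene lists and tests were chosen with earlier results of these data known. Totals of 13.6 M to 33.2 M counts leave members below about 1 CPM on few counts. An allele carried by all groups and 1 gene of the pathway are not reported here.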

Additional observations from a re-analysis of the deposited data

Results flagged for a closer look

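Of 56 groups of 4 to 6 values, 25 held a library whose gap to the nearest value exceeded Dixon's 95% limit. Chance gives about 1 in 20 for normally distributed values. The limit was applied to CPM without a log, for which that rate need not hold, and each flagged value was the highest of its group. The values of 1 library are not independent of each other, and no explanation was tested. In double-floxed organoids with 4-OHT, Irf7 stood apart at 379.6 CPM in replicate 3 (line 1292B, 17699). In double-floxed organoids with vehicle, replicate 5 (line 1027D, 17992) stood apart in the summed level of the 42 members, at 1704 CPM, and in Ddx58 at 48.5 CPM, Ifi44 at 3.46 CPM, Irf7 at 29.2 CPM, Irf9 at 73.8 CPM, Isg15 at 15.5 CPM and Ifit1 at 6.14 CPM. In Foxa1-floxed organoids with 4-OHT, replicate 2 (line 1552A) stood apart in Isg15 at 11.5 CPM and Ifit1 at 6.69 CPM. With vehicle, replicate 1 of the same line stood apart in Zbp1 at 0.632, Usp18 at 3.16, Isg15 at 3.61 and Ifit1 at 2.79 CPM. In Foxa2-floxed organoids with 4-OHT, replicate 2 (line 1267B, 17992) stood apart in the summed level at 7733 CPM, in Zbp1 at 7.29, Irf7 at 326, Oas3 at 293 and Ifit1 at 330.3 CPM. The vehicle library of the same line and number stood apart in the summed level at 2104 CPM, in Irf7 at 48.3, Oas3 at 21.3, Isg15 at 10.2, Irf9 at 65.6 and Ifit1 at 40.3 CPM.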

How the results depend on the processing

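Counts of members called with 4-OHT moved with the setting. With DESeq2 they were 11 in double-floxed, 1 in Foxa1-floxed and 21 in Foxa2-floxed lines, where 6.57%, 1.14% and 3.38% of all genes were called higher. With no filter on low counts they were 29, 20 and 33, where 4.43%, 2.37% and 3.37% were. Without the replicate block none was called in double-floxed or Foxa2-floxed lines, and with a replicate block of line and number 13 and 22. Counts summed per line gave 4 and 10, where 1.76% and 0.234% of genes were called higher. None was called in double-floxed lines without any 1 line, and in Foxa2-floxed lines 16 without line 1267B, 0 without line 1526C, 0 with the genotype fitted alone and 4 without the pair of line 1267B numbered 17992, an alternative chosen after seeing the data. The cause of these shifts was not tested. For any fit without a line or a library, the share of all genes called is not given here, so its count cannot be set against all genes. Leaving out single libraries gave 0 to 1 in double-floxed and 0 to 30 in Foxa2-floxed lines (30 without 4-OHT replicate 1, 13 without vehicle replicate 2).

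In shNKX2-1 organoids no filter gave 19, where 4.59% of genes were called higher. Between hairpins DESeq2 and no filter gave 2 and 1 with vehicle, where 1.96% and 1.84% of genes were called in either direction. They gave 3 and 4 with 4-OHT, where 4.87% and 4.22% were, and 3 and 2 for the difference of the effects, where 0.581% and 0.906% were. Leaving out single libraries gave 0 to 1 with vehicle, 0 to 11 with 4-OHT and 0 to 9 for the difference, with 9 without shNKX2-1 4-OHT replicate 1. The double-floxed minus Foxa1-floxed difference gave 3 with DESeq2 and 1 with no filter, where 7.48% and 1.86% of genes were called in either direction. It gave 1 without line 1292B and 1 with libraries as units and a replicate block of line and number, an alternative added after seeing the data. The median of the double-floxed minus Foxa2-floxed difference was 0.14 without line 1027B and 0.01 without line 1027D. No paired analysis was possible for the hairpin experiment because the labels give its libraries no replicate numbers, and those used here follow accession order.

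Of 803 values for single members under the alternatives, 647 kept direction and side of the threshold, 55 gained a call, 96 lost one and 5 changed sign. The last 5 were Stat2 in Foxa1-floxed lines (0.19 without line 1552A, and -0.13 to 0.11 over single libraries left out, above 0 without 4-OHT replicate 1 or, at 0.02, vehicle replicate 2), Stat2 in shScramble organoids (-0.10 without shScramble vehicle replicate 1, up to 0.18 without the others) and Irf9 in shNKX2-1 organoids (0.09 without shNKX2-1 4-OHT replicate 2, down to -0.66 without the others). The 2 libraries per hairpin group, 2 or 3 lines per genotype and low counts of many members limit the precision.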
